A study of Homo sapiens with 8 samples.

Results

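The 32 genes described here encode enzymes of cholesterol synthesis and the proteins that sense, move and use sterols. They are 7 enzymes of the mevalonate pathway, 10 enzymes that lead from squalene formation to cholesterol, 5 proteins of sterol regulatory element-binding protein (SREBP) control, 6 proteins of sterol transport or targets of the liver X receptor (LXR), and 4 enzymes of fatty acid synthesis. A probe belonged to the group when it was no control probe and its gene name in the array files was that of a member. No measured value entered this matching of probes, but the list of members was drawn up with earlier results of these data known. All 32 were on the array, as 32 of 36337 gene names and 41 of 50599 probes.

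Expression was measured on 8 one-colour arrays, 2 for each of 4 groups. Nthy-ori 3-1 cells, which derive from normal thyroid follicular epithelium and were immortalized, were transfected with pre-miR-375, a synthetic miR-375 mimic at 5 nM per the labels, or with a control. TT, a line from a medullary thyroid carcinoma, a tumour of calcitonin-producing C cells, was transfected with antagomiR-375, an inhibitor of the miRNA at 20 nM per the labels, or with a control. All cells were harvested 48 h after transfection. The labels call the controls CTL only, and these were taken to be the pre-miR-CTL and antagomiR-CTL reagents of the methods. Of the 2 reagents, the array section of the methods names pre-miR-CTL only. Each treatment was thus tested in 1 line, at a concentration below that in the methods. Nthy-ori 3-1 was grown in RPMI medium and TT in DMEM/F12, both with 5% serum in the labels, whereas the methods state a higher share. RNA of both TT controls had an integrity number of 8 and all other RNA one of 9. The methods speak of biological replicates. Within a line, the treated and the control array of a given replicate number shared a slide and form a pair. Other labels number the TT replicates 1b and 3, which gives the same pairs.

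Cells make cholesterol from acetyl-CoA through mevalonate and squalene. When sterols are scarce, SCAP carries SREBP from the endoplasmic reticulum to be cut, and the released factor switches on genes of synthesis, whereas INSIG proteins hold the complex back when sterols are plentiful. LXR, which binds oxysterols, answers a surplus by switching on export pumps such as ABCA1 and ABCG1 and the ubiquitin ligase MYLIP, which removes lipoprotein receptors.

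The agent under study is shown first, since both transfections act on it. The mature miRNA, as RefSeq gives it on GRCh38.p14 (chr2:219001648-219001669, minus strand), is written 5′ to 3′ with its seed, bases 2 to 8, in capitals.
hsa-miR-375-3p: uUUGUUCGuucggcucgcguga
Promoters of 3 members follow, each 300 bases from 250 before to 50 after the start site, from RefSeq on GRCh38.p14, 5′ to 3′ along the gene. Of the 27 members with a promoter window, only SREBF2, the gene of SREBP2, held the letters TCACNCCAC, the core of a sterol regulatory element. Its promoter is therefore shown, with these letters in capitals (chr22:41832855-41833154, plus strand).
SREBF2: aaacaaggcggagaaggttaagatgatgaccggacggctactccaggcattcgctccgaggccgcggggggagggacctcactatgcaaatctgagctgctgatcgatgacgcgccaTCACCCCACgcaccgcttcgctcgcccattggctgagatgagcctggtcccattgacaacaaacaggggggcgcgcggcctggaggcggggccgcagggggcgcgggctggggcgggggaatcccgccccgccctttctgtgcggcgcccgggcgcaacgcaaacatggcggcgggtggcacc
Those of MVK (chr12:109573544-109573843, plus strand) and MYLIP (chr6:16128836-16129135, plus strand) were picked after their values were seen, as the 2 members with the largest difference after pre-miR-375 at an average level of at least 6. Capitals mark CCAAT, the letters bound by NF-Y, or its reverse complement ATTGG.
MVK: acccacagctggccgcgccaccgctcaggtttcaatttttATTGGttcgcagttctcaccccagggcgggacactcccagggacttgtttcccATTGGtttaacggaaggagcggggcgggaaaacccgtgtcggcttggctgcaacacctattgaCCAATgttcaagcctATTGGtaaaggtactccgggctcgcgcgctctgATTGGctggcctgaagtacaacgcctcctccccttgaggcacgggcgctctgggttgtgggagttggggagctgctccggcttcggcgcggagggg
MYLIP: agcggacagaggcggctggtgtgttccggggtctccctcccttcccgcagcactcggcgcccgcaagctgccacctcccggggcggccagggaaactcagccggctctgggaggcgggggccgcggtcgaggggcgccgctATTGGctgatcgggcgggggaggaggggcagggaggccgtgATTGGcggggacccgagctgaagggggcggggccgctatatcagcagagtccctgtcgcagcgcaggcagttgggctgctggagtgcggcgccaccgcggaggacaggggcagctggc
A window was found for 27 of the 32 members. Searched on both strands, TCACNCCAC stood in 1 of the 27 (3.7%) against 1.39% of all gene symbols with a window. CCAAT stood in 20 of the 27 (74.1%) against 39.7% of all symbols, and GGGCGG, the letters bound by Sp1, in 26 of the 27 (96.3%) against 48.3%. These counts describe the letters alone.

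Between 32071 and 37340 spots per array were well above background and no spot was saturated. SEC23A, a direct target of miR-375, had levels of 11.04 and 11.35 in Nthy-ori 3-1 controls and of 9.53 and 10.08 after the mimic. In TT it had levels of 9.55 and 9.69 in controls and of 10.24 and 10.29 after the inhibitor. The paper chose SEC23A partly for its opposite changes in this same experiment. Its levels here therefore cannot check the transfections independently. All levels here are log2 background-subtracted signals, quantile normalized over the 8 arrays, and the array number limits their precision. TT arrays carried the C-cell markers CALCA, CHGA and SCG2, along with NKX2-1 and TG, while Nthy-ori 3-1 arrays carried PAX8 and FOXE1 but no NKX2-1 or TSHR well above background. Of the members, 31 were well above background on every array and 30 averaged at least 6. ABCA1 was not well above background on 1 of 2 arrays in each TT group, and SC5DL averaged 5.13.

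The first question was whether the sterol genes moved when Nthy-ori 3-1 received pre-miR-375. None passed the test, but most synthesis enzymes were measured slightly higher. Of the 17 enzymes of both synthesis groups, 16 had a higher mean with pre-miR-375 and 14 were higher in both pairs, with a median log2 difference of 0.30. The largest difference was that of MYLIP, which was measured 2.95-fold higher, and the mevalonate kinase MVK and the export pump ABCG1 came next. Of the 4 enzymes of fatty acid synthesis, 1 had a higher mean, and their median was -0.07.

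By limma with Benjamini-Hochberg adjustment over all probes, 0 of the 32 members and 0% of all gene names had an adjusted p of at most 0.05, and the smallest adjusted p of any probe was 0.318. Unadjusted p was under 0.05 and the level higher for 3 members, MVK, ABCG1 and MYLIP, or 9.38%, against 7.48% of all gene names and 10.5% of those well above background on all arrays, and lower for 0 members against 7.4%. By direction alone, 19 of 32 members (59.4%) were higher in both pairs against 32.5% of all gene names and 40% of those well above background. Lower in both pairs were 4 members (12.5%), SREBF1, FASN, ACACA and, with -0.005 and -0.003, ABCA1, against 27.8% and 32.4%. The median over the members was 0.25, against 0.004 over all gene names and 0.04 over those well above background, and 26 of 32 were above 0. This shift was unequal between pairs, with a member median of 0.09 in the first and 0.42 in the second.

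With other settings, limma called MYLIP and MVK after normexp background correction (adjusted p = 0.0239 and 0.0441), where 3.46% of all gene names were called. MYLIP was also called with the log2 values as deposited (adjusted p = 0.037, 1.26% called) and with dim probes left out (adjusted p = 0.0425, 3.92% called). In the remaining settings 0 members were called.

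**Figure D1:**
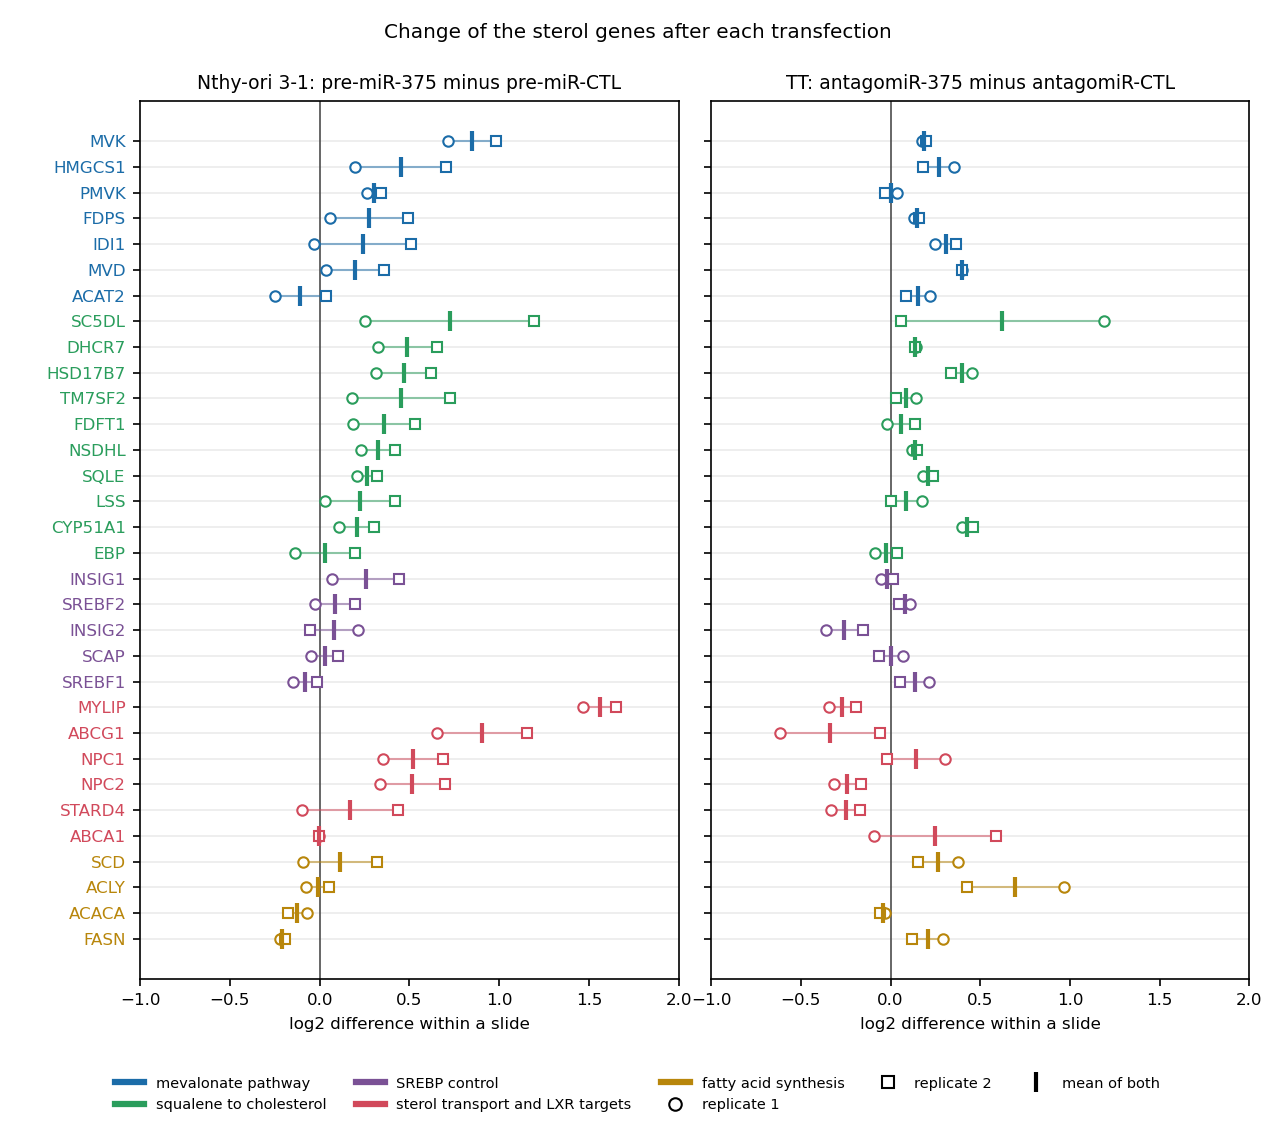
Log2 difference of each of the 32 members within a slide (horizontal axis), pre-miR-375 minus pre-miR-CTL in Nthy-ori 3-1 at the left and antagomiR-375 minus antagomiR-CTL in TT at the right, with a circle for replicate 1, a square for replicate 2 and a bar for their mean. In Nthy-ori 3-1 most squares lie right of the circles, as the medians of 0.42 and 0.09 give, and MYLIP stands farthest right.

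Among the mevalonate enzymes, MVK, which phosphorylates mevalonate, stood at 12.66 and 12.36 in controls and at 13.38 and 13.34 with pre-miR-375. The groups did not overlap, and the arrays with the mimic were close to each other. The log2 fold change was 0.85 (SE 0.12, n = 2 pairs). For either transfection, the share of all gene names without overlap between groups was not counted. HMGCS1, a synthase earlier in the pathway, stood at 9.57 and 9.76 against 9.77 and 10.46, a log2 fold change of 0.45, and its second pair carried most of it. PMVK and FDPS, a later kinase and the farnesyl diphosphate synthase, had log2 fold changes of 0.30 and 0.27. IDI1 and MVD had 0.24 and 0.20. ACAT2, which joins acetyl-CoA units, was the exception in this group at -0.11, with pair differences of -0.25 and 0.04. IDI1 also changed sign, with -0.03 and 0.51. Over the 7 enzymes the median was 0.27, with 0.06 in the first pair and 0.49 in the second.

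All 10 enzymes from squalene to cholesterol had a higher mean with pre-miR-375, with log2 fold changes from 0.03 to 0.73 and a median of 0.34. DHCR7, a reductase of the last steps, stood at 12.87 and 12.57 in controls and at 13.19 and 13.22 with the mimic, without overlap, a log2 fold change of 0.49. HSD17B7, a sterol ketoreductase, stood at 7.96 and 8.01 against 8.27 and 8.62, a log2 fold change of 0.47, and was again free of overlap. TM7SF2, a sterol reductase, stood at 8.51 and 8.32 against 8.69 and 9.05, and its log2 fold change of 0.45 came from pairs of 0.18 and 0.72. The highest value, 0.73 for the desaturase SC5DL, rested on a dim probe. FDFT1, which makes squalene, had 0.36, NSDHL 0.32, the epoxidase SQLE 0.26, the cyclase LSS 0.22 and the demethylase CYP51A1 0.21. EBP, a sterol isomerase, was lowest at 0.03 and changed sign between pairs.

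The 5 genes of SREBP control had a median log2 fold change of 0.08, from -0.08 for SREBF1 to 0.26 for INSIG1, which was higher in both pairs. SREBF2, the factor of the synthesis genes, had 0.08 and SCAP 0.03. INSIG2 had 0.08 by its brighter probe and -1.19 by its other probe, so its direction was not settled.

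Transport and LXR genes held the widest differences. MYLIP stood at 9.33 and 8.99 in controls and at 10.80 and 10.64 with pre-miR-375. Both arrays with the mimic lay more than 1 log2 unit above both controls, and the log2 fold change was 1.56 (SE 0.10, n = 2 pairs). Its adjusted p in limma was 0.318. MYLIP was the only member past the fold thresholds of the methods. These are a log2 fold change of at least 1 at an average of at least 6. They were taken here in either direction, with equal direction in both pairs. Upward, 0.779% of all gene names passed, and 1.47% of those well above background on all arrays. Downward, 0 members passed, against 1.39% and 2.44%. The log2 fold change of MYLIP ranged from 1.47 to 1.65 over the alternative settings. The MYLIP probe lies at chr6:16148409-16148468 on hg19, the build of the array files, and where that is within the transcript was not looked up.

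ABCG1 stood at 5.70 and 4.75 in controls and at 6.35 and 5.90 with the mimic, a log2 fold change of 0.90 (SE 0.19, n = 2 pairs) at a low level. This difference was 0.39 with normexp and 0.47 with the deposited values, below that of MVK at 0.85 and 0.87. NPC1 and NPC2, partners that pass cholesterol out of lysosomes, had nearly equal log2 fold changes of 0.52 each. NPC1 stood at 8.59 and 9.48 against 8.94 and 10.16, with overlapping groups, since replicates of a group lay further apart than the arrays of a pair. NPC2 stood at 14.19 and 13.71 against 14.53 and 14.40, without overlap. ABCA1, the other export pump, stood at 6.74 and 7.36 against 6.74 and 7.36, a log2 fold change of -0.004, unlike the other pump. STARD4, a sterol carrier, had 0.17 with pairs of opposite sign.

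Of the fatty acid enzymes, the fatty acid synthase FASN was lower in both pairs, with differences of -0.22 and -0.20. ACACA, which makes malonyl-CoA, had a log2 fold change of -0.12, the desaturase SCD 0.11 and ACLY, the citrate lyase, -0.01. Markers of another cell type moved with the same comparison. The 4 C-cell markers CALCA, CHGA, SCG2 and CEACAM5 were higher in both pairs. Their summed level in Nthy-ori 3-1 was 5.11 and 5.47 in controls and 8.71 and 8.67 after the mimic, against 18.86 and 19.02 in TT controls. The sums after the mimic rested on different genes, with CALCA at 8.12 and 4.51 and SCG2 at 6.72 and 8.42. None of the 4 was well above background on a pre-miR-CTL array, while CALCA, CHGA and SCG2 were on both pre-miR-375 arrays. The 6 follicular markers summed to 11.13 and 11.06 against 10.77 and 10.83, the 3 fibroblast markers to 14.22 and 13.39 against 14.83 and 14.70, and the 2 immune markers to 7.79 and 8.30 against 7.30 and 7.65. The part of these in the sterol gene values was not tested. In bulk RNA, fewer cells of a type and less RNA per cell cannot be told apart.

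The second question was what happened in TT cells when miR-375 was inhibited. Again no member passed the test, and again the synthesis enzymes were mostly measured higher. Of the 17 enzymes, 16 had a higher mean with antagomiR-375 and 14 were higher in both pairs, with a median log2 difference of 0.16. The largest difference was that of ACLY, which makes cytosolic acetyl-CoA and was measured 1.62-fold higher. The LXR and transport genes MYLIP, ABCG1, NPC2 and STARD4 were lower in both pairs.

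By limma, 0 of 32 members and 0% of all gene names had an adjusted p of at most 0.05 in TT cells. The smallest adjusted p of any probe was 0.512, and 0 members were called in each alternative setting. Unadjusted p was under 0.05 and the level higher for 3 members, MVD, CYP51A1 and HSD17B7 (9.38% against 4.92% of all gene names), and lower for 0 members (against 4.89%). By direction, 19 of 32 members (59.4%) were higher in both pairs against 31.2% of all gene names and 30.9% of those well above background on all arrays. Lower in both pairs were 6 members (18.8%) against 30.9% and 34.6%, namely INSIG2, STARD4, NPC2, ABCG1, MYLIP and ACACA. The median over the members was 0.14 against 0 over all gene names, with 0.14 in the first pair and 0.07 in the second.

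The treatment was tied to RNA quality here, since both control arrays had an integrity number of 8 and both antagomiR-375 arrays 9, so the 2 cannot be told apart. C-cell markers summed to 18.86 and 19.02 in controls and to 19.02 and 19.02 with antagomiR-375. CALCA dominated this sum and had the same value, 18.61, on the second control array and both antagomiR-375 arrays. Quantile normalization gives the same value to the same rank, so these sums and the difference of CALCA say little about its amount. All 4 C-cell markers had a higher mean with antagomiR-375, and 3 were higher in both pairs. Log2 fold changes were 0.905 for CEACAM5, 0.37 for SCG2, 0.15 for CHGA and 0.06 for CALCA. Follicular markers summed to 12.53 and 12.40 against 12.41 and 12.33. Fibroblast markers summed to 4.82 and 4.37 against 5.96 and 4.86, with COL1A1 at 5.48 on 1 antagomiR-375 array and at 2.23 to 2.63 on the other TT arrays, and immune markers to 6.92 and 7.27 against 6.86 and 6.97. The part of these in the result was not tested.

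ACLY stood at 10.73 and 11.29 in controls and at 11.69 and 11.72 with antagomiR-375. The groups did not overlap, though the controls lay further apart than the treated arrays. The log2 fold change was 0.70 (SE 0.20, n = 2 pairs), with 0.97 in the first pair and 0.43 in the second. ACLY was the only member past the thresholds of the methods for TT, a log2 fold change of at least 0.6 at an average above 6. They were read in either direction, with both pairs equal in direction. Upward, 1.27% of all gene names passed, and 2.12% of those well above background on all arrays. Downward, 0 members passed, against 0.658% and 1.02%. Without replicate 1 no member passed, and without replicate 2 ACLY and ABCG1 did.

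Of the mevalonate enzymes, all 7 had a log2 fold change above 0, with a median of 0.19. MVD, which decarboxylates mevalonate diphosphate, stood at 9.14 and 9.07 against 9.54 and 9.47, and both pairs differed by 0.40. The isomerase IDI1 stood at 10.36 and 10.66 against 10.61 and 11.02, a log2 fold change of 0.31 with overlapping groups. HMGCS1 stood at 8.03 and 8.28 against 8.39 and 8.47, without overlap, a log2 fold change of 0.27. MVK stood at 12.76 and 12.73 against 12.94 and 12.93, a log2 fold change of 0.19, and ACAT2, FDPS and PMVK had 0.16, 0.14 and 0.004.

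From squalene to cholesterol, 9 of 10 enzymes had a log2 fold change above 0, with a median of 0.14. CYP51A1, the lanosterol demethylase, stood at 11.45 on both control arrays and at 11.85 and 11.91 with antagomiR-375, a log2 fold change of 0.43 (SE 0.09, n = 2 pairs), with an adjusted p in limma of 0.512. HSD17B7 stood at 8.20 and 8.41 against 8.66 and 8.75, a log2 fold change of 0.40, again without overlap. SC5DL had 0.62, but from pairs of 1.19 and 0.06 at a low level. The remaining log2 fold changes were 0.21 for SQLE, 0.14 for DHCR7, 0.13 for NSDHL, 0.09 for LSS and TM7SF2 and 0.06 for FDFT1. EBP was the exception at -0.03.

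SREBP control genes had a median of 0.004. SREBF1, SREBF2 and SCAP had log2 fold changes of 0.14, 0.08 and 0.004, INSIG1 had -0.02, and INSIG2 was lower in both pairs, with -0.26. Among transport and LXR genes, MYLIP stood at 9.59 and 9.39 in controls and at 9.24 and 9.20 with antagomiR-375, without overlap, a log2 fold change of -0.27 (SE 0.10, n = 2 pairs). ABCG1 stood at 7.17 and 7.21 against 6.55 and 7.15, and its log2 fold change of -0.34 came mainly from the first pair and was -0.19 with normexp and -0.17 with the deposited values. NPC2 stood at 12.65 and 12.56 against 12.33 and 12.39, a log2 fold change of -0.24. STARD4 had -0.25, NPC1 0.14 and the dim ABCA1 0.25, both with pairs of opposite sign.

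The 4 fatty acid enzymes had a median of 0.24 in TT. Besides ACLY, SCD, the stearoyl-CoA desaturase, had a log2 fold change of 0.26 and FASN one of 0.21, both higher in both pairs, and ACACA had -0.04.

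**Figure D2:**
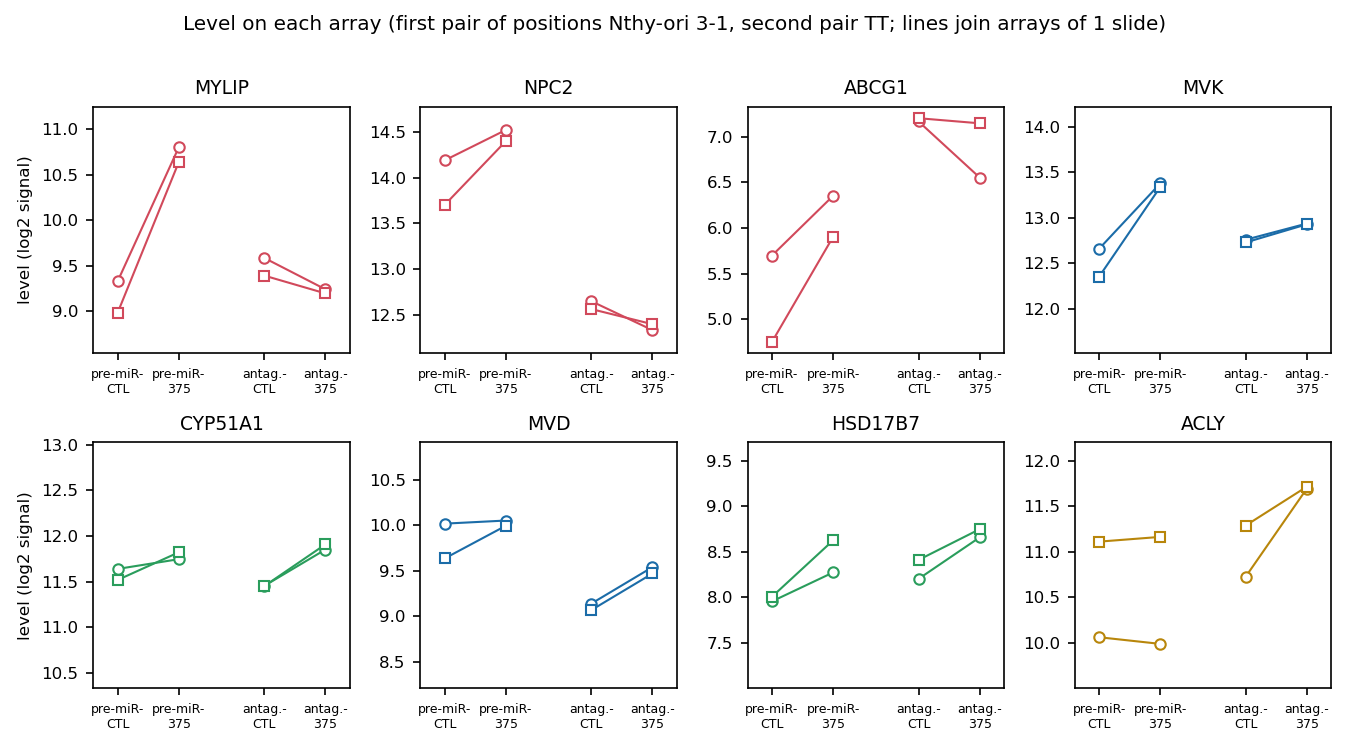
Level on each array (log2 signal, vertical axes of equal span) of 8 members, with Nthy-ori 3-1 at the left and TT at the right of each panel, a circle for replicate 1, a square for replicate 2, and a line joining the arrays of a slide. MYLIP, NPC2 and ABCG1 were higher with pre-miR-375 and lower with antagomiR-375 in both pairs, whereas MVK, CYP51A1, MVD and HSD17B7 were higher in all 4 pairs.

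Set side by side, the 2 transfections act on miR-375 in opposite directions and share no array. A gene that follows miR-375 in both lines would be higher in one and lower in the other. Of the members, 3 (NPC2, ABCG1 and MYLIP, 9.38%) were higher in both Nthy-ori 3-1 pairs and lower in both TT pairs, against 10.8% of all gene names and 16% of those well above background on all arrays. The reverse held for SREBF1 and FASN (6.25% against 9.16% and 12.5%). More members, 12 of 32 (37.5%), were higher in all 4 pairs, against 10.1% of all gene names and 11% of those well above background. All 12 were cholesterol synthesis enzymes, namely HMGCS1, MVK, MVD, FDPS, SQLE, LSS, CYP51A1, TM7SF2, NSDHL, HSD17B7, SC5DL and DHCR7. Only ACACA was lower in all 4 (3.12% against 8.61%). No test was run of whether the lines differed in these changes.

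**Figure D3:**
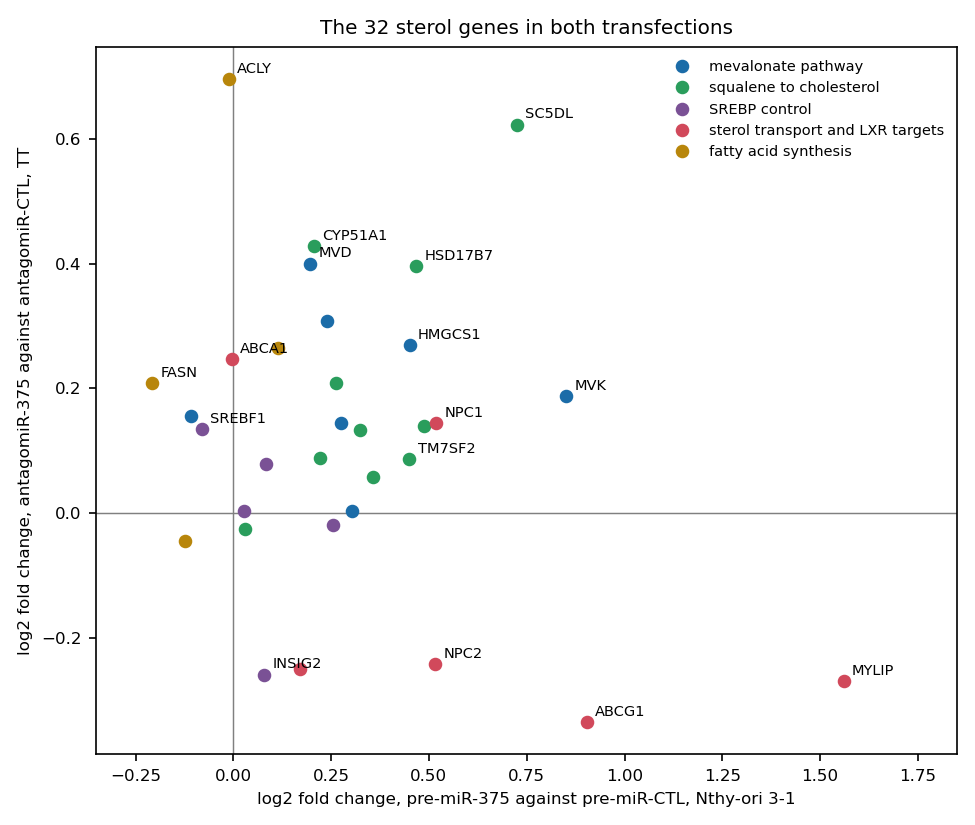
Log2 fold change of each member after pre-miR-375 in Nthy-ori 3-1 (horizontal axis) and after antagomiR-375 in TT (vertical axis), coloured by role. Synthesis enzymes lie mostly in the upper right, while MYLIP (1.56 and -0.27), ABCG1 (0.90 and -0.34) and NPC2 (0.52 and -0.24) lie in the lower right.

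The third comparison set the control arrays of TT against those of Nthy-ori 3-1. It asked which of these genes differ in level between the lines, and 13 members did, in both directions. Transcripts of ACAT2, HMGCS1, LSS and NSDHL, all synthesis enzymes, of NPC2 and ABCA1, and of FASN and SCD were lower in TT, while PMVK, TM7SF2, INSIG1, STARD4 and ABCG1 were higher. MYLIP, MVK, FDPS, DHCR7, CYP51A1, EBP, SCAP and SREBF2 were among the members not called. Line, slide, medium, RNA integrity number and, as taken here, control reagent differed together and cannot be told apart.

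By limma at an adjusted p of at most 0.05 and a log2 difference of at least 1, 13 of 32 members (40.6%) were called, against 23.2% of all gene names and 27.9% of those well above background on all arrays. By direction, 5 were higher in TT (15.6% against 12.1% of all gene names and 13% of those well above background) and 8 lower (25% against 11.1% and 14.8%). The median log2 difference over the members was -0.28, against -0.05 over all gene names. Without the first TT control 0 members and 0% of all gene names were called, and without the second 0 members and 3.26% of all gene names, where 1 array is assumed to vary like the other line. The difference of TM7SF2 was then 3.47 and 3.36 and that of ACAT2 -2.10 and -2.27. Of the members, 12 and 10 were called without the first or second Nthy-ori 3-1 control. With the replicate number as a block, 4 members (HMGCS1, PMVK, TM7SF2 and STARD4), or 12.5%, were called against 14.6% of all gene names, though equal numbers of the lines lay on different slides.

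TM7SF2, the sterol reductase, was among the members higher in TT. It stood at 8.51 and 8.32 in Nthy-ori 3-1 controls and at 11.77 and 11.89 in TT controls, 10.7-fold higher in TT (log2 difference 3.41, SE 0.15, n = 2 per line; limma adjusted p = 0.00294). INSIG1, which holds SREBP back, stood at 11.72 and 10.87 against 13.26 and 13.13, a log2 difference of 1.90, with an SD of 0.60 between the former. STARD4 stood at 7.82 and 7.75 against 9.76 and 9.61, also a difference of 1.90. ABCG1 stood at 5.70 and 4.75 against 7.17 and 7.21, a difference of 1.96, which was 1.01 with normexp and 0.85, below the threshold of 1, with the deposited values. PMVK stood at 11.41 and 11.23 against 12.85 and 12.84, a difference of 1.53. These genes belong to different steps, and none of the groups overlapped. Arrays without overlap and a difference of at least 1, higher in TT, were found for 5 of 32 members (15.6%). The share was also 15.6% of gene names well above background on all arrays. Lower in TT by the same rule were 9 members (28.1%), against 19.4%.

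Among the members lower in TT, ACAT2 stood at 13.56 and 13.11 in Nthy-ori 3-1 controls and at 11.06 and 11.24 in TT controls, a log2 difference of -2.19 (limma adjusted p = 0.0131). NSDHL, a sterol dehydrogenase, stood at 12.91 and 12.56 against 11.22 and 11.16, a difference of -1.55. ABCA1 stood at 6.74 and 7.36 against 4.25 and 3.06, a difference of -3.40, but only 1 of its 2 TT control arrays was well above background, and the difference was -1.45 with normexp and -1.95 with the deposited values. Its call was lost in 6 of 13 alternative settings, among them the mean of its 2 probes (adjusted p = 0.0567). HMGCS1 differed by -1.51, NPC2 by -1.35, FASN by -1.28, SCD by -1.13 and LSS by -1.02. NPC1 differed by -1.50 without overlap but was not called (limma adjusted p = 0.084), with an SD of 0.63 between its Nthy-ori 3-1 controls against 0.23 in TT.

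Apart from NPC1, the members not called had log2 differences from -0.72 for MVD to 0.91 for the squalene epoxidase SQLE. The regulators SCAP, SREBF2 and SREBF1 had -0.02, 0.18 and -0.40, and the ligase MYLIP had 0.33. Among enzymes, IDI1 had -0.68, ACACA -0.65, FDFT1 -0.49, EBP -0.35, FDPS -0.21, CYP51A1 -0.13, DHCR7 -0.12, SC5DL 0.08, MVK 0.24, HSD17B7 0.33 and ACLY 0.42, and INSIG2 had -0.48.

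**Figure D4:**
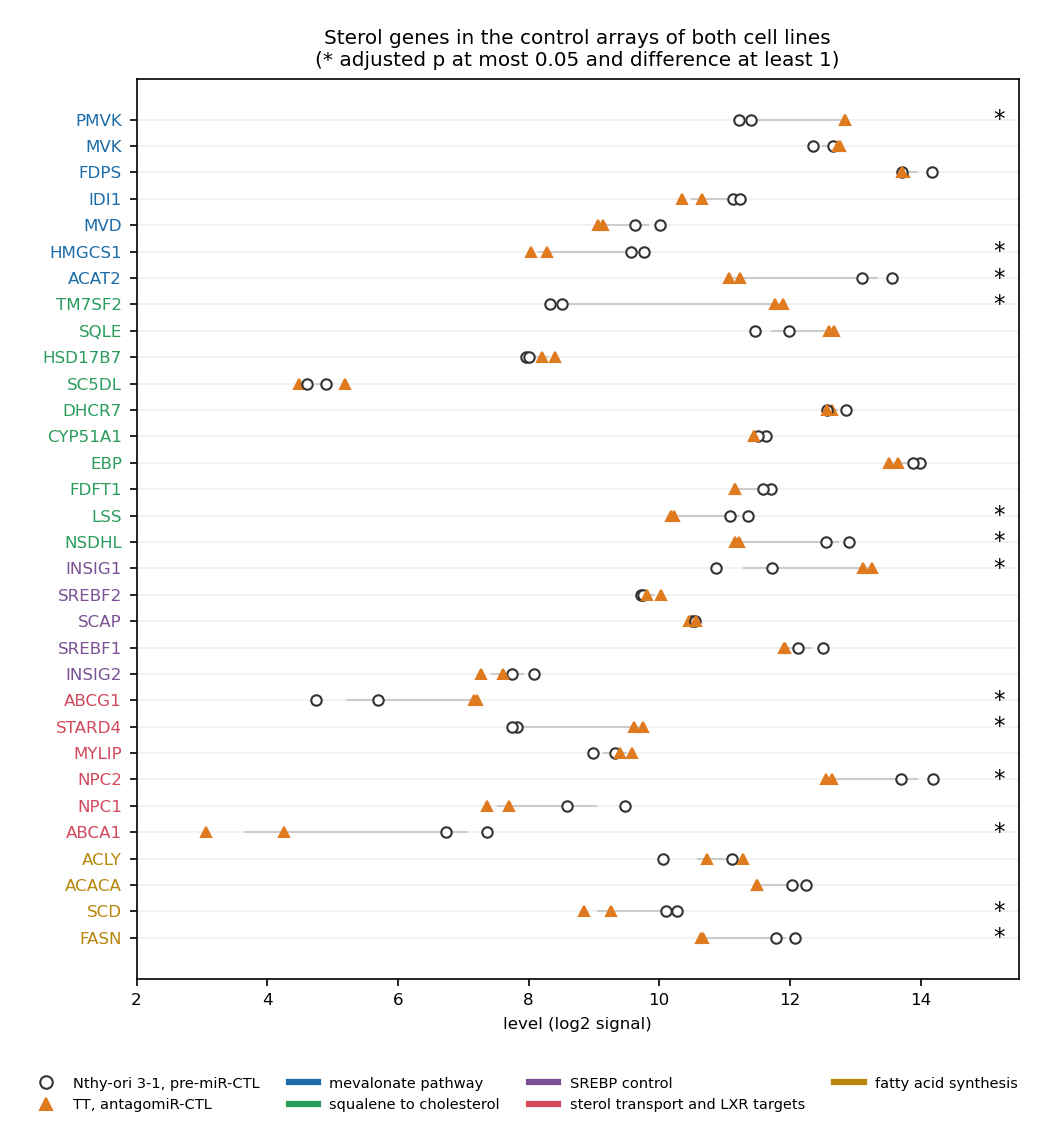
Level (log2 signal) of the 32 members on the control arrays, circles for Nthy-ori 3-1 and triangles for TT, ordered by role and within it by the difference, with gene names coloured by role and a star for the 13 members called by limma. TM7SF2 shows a gap of 3.41, that of ABCA1 rests on a dim probe that was well above background on 1 of 2 TT control arrays, and SCAP shows none that exceeds the spread.

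A list of 28 further genes of sterol and fatty acid metabolism was read in the same way. In Nthy-ori 3-1, 0 of 28 were called by limma. At an unadjusted p under 0.05, 5 were higher and 4 lower, against 7.48% and 7.4% of all gene names. In both pairs, 14 were higher and 11 lower, against 32.5% and 27.8%. Over gene names well above background on all arrays, these shares were 10.5% and 10.5%, and 40% and 32.4%. ELOVL6, a fatty acid elongase, stood at 7.89 and 8.42 in controls and at 6.36 and 6.54 with pre-miR-375, a log2 fold change of -1.70. The malic enzyme ME1, a source of NADPH, stood at 7.04 and 8.04 against 5.60 and 7.10, a log2 fold change of -1.19. LIPA, the lysosomal lipase that frees cholesterol from its esters, stood at 12.20 and 12.60 against 12.82 and 13.24, a log2 fold change of 0.63, and was lower in TT with antagomiR-375, at 11.47 and 11.58 against 10.93 and 11.06, a log2 fold change of -0.53. The limma adjusted p of these differences was 0.318 in Nthy-ori 3-1 and 0.512 in TT.

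In TT, 0 of 28 were called. At an unadjusted p under 0.05, 5 were higher and 1 lower, against 4.92% and 4.89% of all gene names. In both pairs, 12 were higher and 10 lower, against 31.2% and 30.9%. Over gene names well above background on all arrays, these shares were 4.84% and 4.38%, and 30.9% and 34.6%. ERLIN2, a protein of the endoplasmic reticulum that takes part in the degradation of membrane proteins, stood at 7.02 and 6.66 in controls and at 8.41 and 8.23 with antagomiR-375, a log2 fold change of 1.47. MBTPS1, the first protease to cut SREBP, stood at 10.69 and 10.88 against 11.25 and 11.25, a log2 fold change of 0.47. Between the controls 4 of 28 were called, a smaller share than the 23.2% of all gene names, and all were lower in TT (SOAT1, SCARB1, CYP27A1 and ERLIN1). SCARB1, a receptor for high-density lipoprotein, stood at 14.14 and 13.95 in Nthy-ori 3-1 and at 12.42 and 12.37 in TT, a log2 difference of -1.65 (limma adjusted p = 0.00909). CYP27A1, a sterol hydroxylase, stood at 5.34 and 4.85 in Nthy-ori 3-1 and was at least 2.81-fold lower in TT (limma adjusted p = 0.0221), a bound set by the dimmest signals well above background, since neither TT control array, at 3.42 and 3.20, was above it. PANK3, a pantothenate kinase, stood at 10.42 and 11.56 against 13.17 and 13.21, a difference of 2.20 that was not called.

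Several probes were present for 6 members. The 5 probes of HSD17B7 all had a higher mean with pre-miR-375, with log2 fold changes from 0.47 to 2.23, the largest on the 2 dimmest. For LSS, the second, dim probe gave 1.19 in TT against 0.09 for the brighter one, and -3.37 against -1.02 between the lines, the same direction in each case. Directions differed for INSIG2 in Nthy-ori 3-1 (0.08 and -1.19) and between the lines (-0.48 and 0.51), for ACACA (-0.12 and 0.12) and ABCA1 (-0.004 and 0.21) in Nthy-ori 3-1, and for SREBF1 in both treatments (-0.08 and 0.23 in Nthy-ori 3-1, 0.14 and -0.06 in TT).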

How the data were processed

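Per the labels, RNA was labelled for one-colour Agilent arrays. For every array the authors deposited spot intensities from Feature Extraction 10.10.1.1, of which the processed intensity is background subtracted and not normalized between arrays. They also deposited a table of log2 values, whose distributions match within a line and not between lines, so it was read as normalized within each line and used as an alternative. The labels name polyA RNA and the methods total RNA.

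The log2 processed intensity was taken without control spots and outlier spots, replicate spots were averaged per probe, and quantile normalization covered all 8 arrays. limma 3.58.1 in R 4.3.3 fitted each line alone with the replicate number as a block (1 residual degree of freedom), and the 4 control arrays without a block. P-values were adjusted by Benjamini-Hochberg over all probes, and a probe with a missing array was not tested. The probe with the highest average over the arrays stood for a gene. The numbers pair arrays of 1 slide, and differences between replicates of control and treated arrays correlated across probes with an r of 0.785 in Nthy-ori 3-1 and 0.329 in TT. The limma fits were tested on simulated data.

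Array values were given for the 8 members with the largest difference in each comparison, for the treatments at an average of at least 6 and equal direction in both pairs, and for the 3 such genes of the further list. Values of ABCG1 and ABCA1 in Nthy-ori 3-1 and of MVK and NPC2 in TT were added after they were seen. The members and lists were chosen with earlier results of these data known. Some genes of the further and marker lists are not reported here. Promoters were searched for TCACNCCAC, CCAAT and GGGCGG. Alternatives covered the block, a joint fit of both lines, leaving out each replicate, the background, normalization, deposited values, dim probes, the prior variance, outlier spots and the mean of a gene's probes.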

Additional observations from a re-analysis of the deposited data

How the results depend on the processing

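Of the differences of the named members under all alternatives, 0 reversed. By adjusted p alone, 268 kept their side of the threshold, 24 lost it and 4 gained it. For the treatments, leaving out a replicate could not reverse a difference, since these members were named for equal direction in both pairs. The block, the joint fit, the prior variance and leaving out dim probes do not alter the log2 difference. ACACA in TT, which was not among the named members, went from -0.04 to 0.03 with the deposited values. ABCG1 between the lines kept its adjusted p with the deposited values but fell below a difference of 1. In Nthy-ori 3-1, where 0 members were called, 2 were called with normexp, 1 with the deposited log2 values and 1 with dim probes left out, and 0 without either replicate, without the replicate block and in the joint fit. In TT, 0 were called in every alternative run. Past the fold thresholds, TT had 1 member, 0 to 2 when a replicate was left out and 2 with the mean of a gene's probes. Between the control groups, 13 members were called, 0 to 12 when an array was left out, 4 with the replicate number as a replicate block, and 11 to 14 in the other alternatives. Leaving out a pair takes the spread from the other line, and leaving out a control array leaves 1 array assumed to vary like the other line.

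The deposited values moved the median of all gene names between the lines to -0.31, and that of the members to -0.57. Scaling by the 75th percentile moved the median of all gene names to -0.08 in TT and that of the members to 0.06. Gene names called in Nthy-ori 3-1 numbered 0, 1257 with normexp, 458 with the deposited values and 774 without dim probes. Gene names called between the controls numbered 8427, 5291 with the replicate block, and 0 or 1186 without the first or second TT control.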
